A study of Mus musculus with 199 samples.

Results

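The major urinary protein (Mup) genes encode small secreted lipocalins, barrel-shaped carriers of hydrophobic ligands, that mouse hepatocytes release into the blood for excretion in urine, where they bind and slowly release volatile pheromones. The genes form a tandem cluster on chromosome 4, and their transcription in the liver is known to depend on growth hormone, androgens and the strain of the mouse. Mup20, also called darcin, encodes a pheromone of male urine, and Mup3 is a diverged member of the cluster.

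The 10 Mup genes described here are Mup1, Mup2, Mup3, Mup7, Mup9, Mup10, Mup11, Mup14, Mup17 and Mup20, chosen by symbol from a table of 31581 genes because they had counts in liver colony libraries and not in tumour spheroids. Their levels against spheroids and relative to albumin (Alb) were used in choosing them and are therefore given as descriptions, without a test. The table holds 11 other protein-coding Mup genes and 27 Mup pseudogenes. All 10 are protein coding genes on the minus strand of chromosome 4 (GRCm38), from Mup7 at chr4:60066469-60070475 to Mup3 at chr4:62083476-62087342.

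The libraries come from a mouse model of small-cell lung cancer. KP1 cells (Rb1-/-Trp53-/-) were sampled as cultured spheroids, as liver colonies in nude mice, which lack mature T cells, and as liver colonies in mice labelled F1. Groups of 10 cells were taken from frozen sections by laser capture microdissection (10-cell libraries), and pool-and-split controls (pools) were made beside them. There were 31 10-cell libraries and 24 pools from F1 liver, 33 and 35 from nude liver, and 28 and 20 from spheroids. A further 24 10-cell libraries held pre-cancerous RPC cells (Rb1-/-Trp53-/-p130-/+Crebbp-/-), and 1 bulk spheroid library each came from KP1, KP2 (which also carries Ptch1+/lacz), KP3 (Axin2+/lacz) and KP5 (BAT-GAL). KP1 and the other tumour lines are single lines, and the labels give no sex, age, number of animals or parental strains of the hosts, so host immunity, strain, sex and animal cannot be told apart in any comparison of F1 with nude liver. Where nothing says that libraries came from separate animals, p-values measure only the spread between these libraries. The pools are splits of pooled material, and how many separate pools lie behind them is not given, so SDs and p-values over pools measure the spread between splits.

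Gene totals ran from 718208 to 5432858 counts in the liver libraries and from 3662447 to 5830589 in spheroid libraries. The 5 F1 10-cell libraries numbered 29 to 33 and the 5 F1 pools numbered 21 to 25 stand apart by a low ribosomal pseudogene, Rpl19-ps11, at 85.5 CPM (counts in 1000000 gene counts of the library) or less against 177.5 or more in the other F1 10-cell libraries, and the tests between groups were also run without them. Genes of the tumour's neuroendocrine programme were present in every liver group, with all 13 listed genes detected in the 10-cell libraries of both hosts. Genes of hepatocyte secretion were present too, with all 26 listed genes detected in each of the 4 liver groups, at a summed level of 0 to 3273 CPM in F1 10-cell libraries and 125 to 7616 CPM in nude 10-cell libraries. In these mixed captures, fewer hepatocytes and less RNA per hepatocyte cannot be told apart.

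The sequences of the members set how well their counts can be separated, so a stretch of coding sequence is shown for 4 of them. Coding identity between the 8 members other than Mup3 and Mup20 was 98.4% to 99.6%, whereas Mup3 matched the other members at 82.3% to 86.8% and Mup20 at 86.8% to 91.4%. The stretch below is the 60-base run inside exon 2 (transcripts of GENCODE M21) in which Mup3 and Mup20 together differ most from Mup1. It is printed 5′ to 3′ on the minus strand, and capitals mark bases that differ from Mup1. It lies at chr4:60501332-60501391 in Mup1, chr4:61303372-61303431 in Mup14, chr4:62086850-62086909 in Mup3 and chr4:62053530-62053589 in Mup20.
Mup1: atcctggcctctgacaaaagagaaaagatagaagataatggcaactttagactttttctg
Mup14: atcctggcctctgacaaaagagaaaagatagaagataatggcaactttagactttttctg
Mup3: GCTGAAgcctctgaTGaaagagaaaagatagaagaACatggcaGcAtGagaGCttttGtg
Mup20: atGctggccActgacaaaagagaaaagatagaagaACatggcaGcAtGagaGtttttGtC
Mup1 and Mup14 are the same throughout this stretch, as are Mup2, Mup9, Mup10 and Mup11. Mup3 differs from Mup1 at 16 of its 60 bases and Mup20 at 10.

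The same split appeared in short stretches of the transcripts, and only in part in the counts. Of all 50-base words in the Mup20 transcript, 95.3% occur in no other protein-coding Mup transcript, and for Mup3 the share is 85.1%. For Mup2 the share is 0%, for Mup14 2.40%, for Mup1 5.24% and for Mup17 21.9%. The deposited values are expected counts, in which a read that matches several genes is divided among them, and a value that is not whole shows such division. Alb had whole values in all 103 liver libraries in which it was above 0, Mup3 had values that were not whole in 26.2% of its libraries, Mup20 in 73.1%, and the other 8 members in 93.1% to 100%. Levels of Mup3 are therefore the best separated. Mup20 comes next, although most of its values above 0 also show division, and the assignment of counts among the other 8 is uncertain.

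Some of the cluster is also present in the table more than once. A row on an assembly patch held exactly the values of Mup14 in all 199 libraries, 87 of them above 0, and another held exactly those of Mup9, with 65 above 0. The non-members Mup15 and Mup16 have such a copy as well. The printed levels of these 4 genes leave out the copies. Adding them raised the mean of the summed members in F1 10-cell libraries from 630.8 to 778.9 CPM.

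The upstream sequences are alike too, though less so than the coding sequences. RefSeq promoter entries (GRCm38.p6) were matched for 8 of the 10 members, Mup1 and Mup20 being the exceptions. The 250 bases before the annotated start are shown for Mup7 and Mup14, the members with the highest F1 10-cell levels among those with an entry, with capitals at the bases that differ where they overlap. They lie at chr4:60070476-60070725 and chr4:61303999-61304248, on the minus strand.
Mup7: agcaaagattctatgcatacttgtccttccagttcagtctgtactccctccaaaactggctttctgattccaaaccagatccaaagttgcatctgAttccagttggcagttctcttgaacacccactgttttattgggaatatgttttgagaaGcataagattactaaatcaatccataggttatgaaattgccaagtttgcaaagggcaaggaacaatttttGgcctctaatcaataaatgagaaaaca
Mup14: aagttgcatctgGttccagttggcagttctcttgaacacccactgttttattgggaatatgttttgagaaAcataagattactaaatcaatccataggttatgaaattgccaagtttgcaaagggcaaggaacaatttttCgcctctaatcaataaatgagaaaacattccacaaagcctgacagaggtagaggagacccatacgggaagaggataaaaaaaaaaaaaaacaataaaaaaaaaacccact
The starts are annotated at different bases of the copies, so the 2 sequences overlap over 167 bases, of which 164 are the same. Over all pairs of the 7 members other than Mup3 with an entry, identity over the overlap was 91.2% to 98.7%, and Mup3 matched them at 79.6% to 84.1%. In the 300-base entries, from 250 bases before to 50 after the start, no member held the STAT5 motif TTCNNNGAA, the TATA motif TATAAA or the palindromic HNF1 motif on either strand. Over all 32851 entries the shares were 8.3%, 13.6% and 0.00913%. The absence says only that these letters are not in these windows.

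Mup counts were found in liver libraries and almost nowhere else. At least 1 count of a member was present in 25 of 31 F1 10-cell libraries, 19 of 24 F1 pools, 31 of 33 nude 10-cell libraries and 28 of 35 nude pools. No member had a count in the 48 spheroid or 4 bulk libraries, and the only count among the 76 libraries without liver was 1 count of Mup2 in an RPC library. Against the total of the spheroid 10-cell libraries, a count of 0 allows a level of up to 0.0241 CPM, which covers counting error only. Alb followed nearly the same line, with counts in 1 spheroid pool and 1 RPC library, the higher being 5 counts.

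Summed over the 10 members, the level was 630.8 CPM ± 831 (SD, n = 31) in F1 10-cell libraries, with a lowest value of 0, a median of 312 and a highest of 3575. It was 199.5 CPM ± 409 (SD, n = 24) in F1 pools, with a median of 22.2 and a range of 0 to 1687. In nude liver it was 70.5 CPM ± 92.8 (SD, n = 33) in 10-cell libraries, with a median of 21.2 and a range of 0 to 392, and 43.9 CPM ± 102 (SD, n = 35) in pools, with a median of 9.79 and a range of 0 to 582. The ranges of all 4 groups overlap, and in each group the SD exceeded the mean. F1 10-cell libraries had the highest values, and 6 of them had no member count at all. Without pool 35 the nude pool mean was 28.1 CPM.

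**Figure D1:**
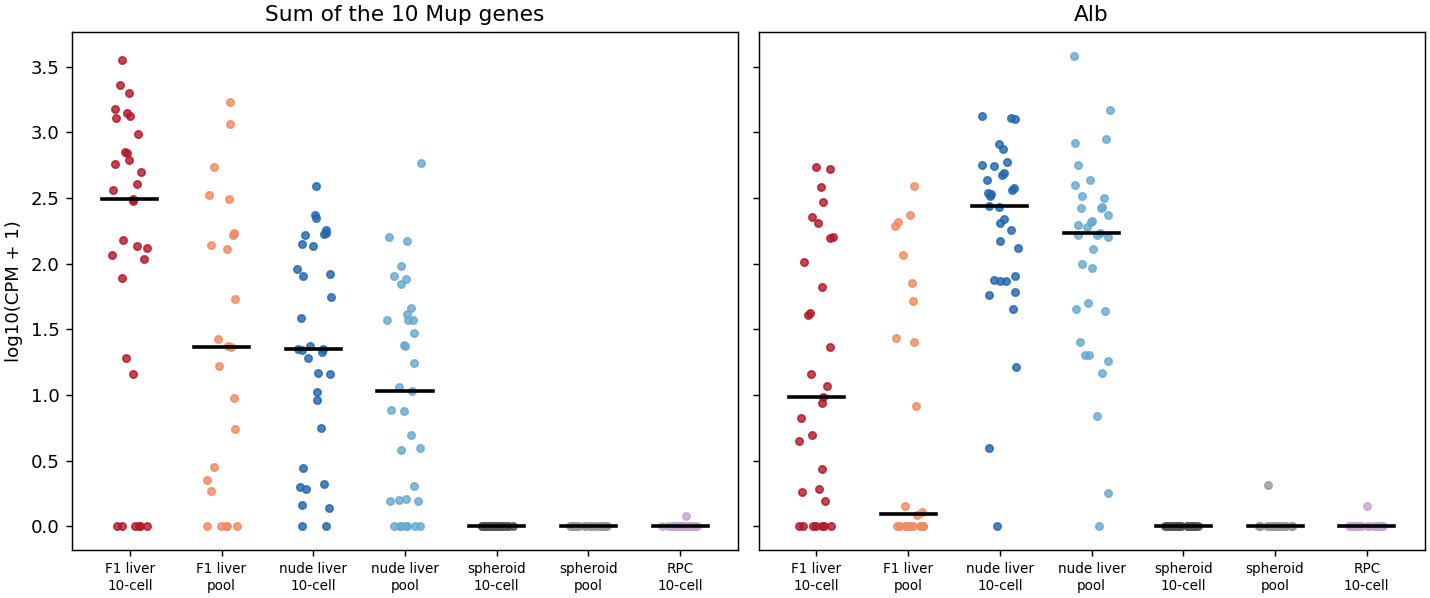
Summed level of the 10 Mup genes (left) and level of Alb (right) in each library, as log10(CPM + 1), with a point per library and a bar at the group median. The Mup sum is highest in F1 10-cell libraries, with a median of 312 CPM, Alb is highest in nude 10-cell libraries, and both lie at or near 0 in spheroids and RPC cells.

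Alb, the most abundant plasma protein and the reference for hepatocyte RNA here, ran the other way. Its mean was 90.4 CPM ± 153 (SD, n = 31) in F1 10-cell libraries and 369 CPM ± 367 (SD, n = 33) in nude 10-cell libraries. Among libraries with Alb, the Mup sum exceeded Alb in 22 of 24 F1 10-cell libraries and 8 of 13 F1 pools, but in 1 of 32 nude 10-cell libraries and 2 of 34 nude pools. The median ratio of the Mup sum to Alb was 16.2 in F1 10-cell libraries and 0.111 in nude 10-cell libraries, and per kilobase of transcript the medians were 35.6 and 0.244. Without the F1 libraries that stand apart the F1 median was 9.91 over 20 libraries.

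**Figure D2:**
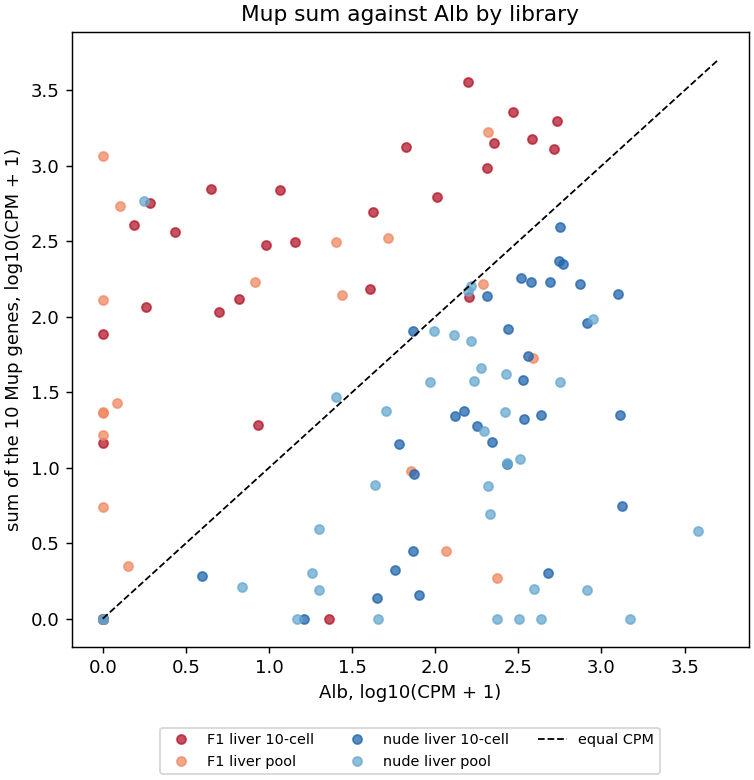
Level of Alb (horizontal) against the summed level of the 10 Mup genes (vertical) in each liver library, both as log10(CPM + 1), with a dashed line at equal CPM. Of the libraries with Alb, 22 of 24 F1 10-cell libraries lie above the line and 31 of 32 nude 10-cell libraries do not.

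Within a host, the Mup sum and Alb tended to be high in the same 10-cell libraries. Spearman's rho was 0.79 over 31 F1 10-cell libraries and 0.66 over 33 nude 10-cell libraries, but 0.39 over 24 F1 pools and -0.06 over 35 nude pools. These are descriptions across libraries that share their depth and their content of liver RNA. In nude pool 35 the Mup sum was the highest of its group, at 582 CPM, of which Mup10 made up 573 CPM, while Alb was at 0.781 CPM.

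The members with the highest levels in F1 10-cell libraries were Mup1, Mup7 and Mup14, at 176, 164 and 144 CPM per kilobase of transcript, ahead of Mup10 at 60.3 and Mup20 at 34.2. With its identical patch row added, Mup14 was the highest, at 287.6 CPM per kilobase. Without the patch rows the first 3 made up 26.0%, 23.5% and 20.5% of the summed member counts. In nude 10-cell libraries Mup9 (24.1%), Mup3 (23.7%) and Mup14 (22.9%) had close shares of the summed counts, with Mup7 at 0.225%. Their order is not settled, since by mean CPM Mup14 led, at 24.4%, and the patch rows would double Mup9 and Mup14 but not Mup3. The composition thus differed between hosts as well as the level, as a description.

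**Figure D3:**
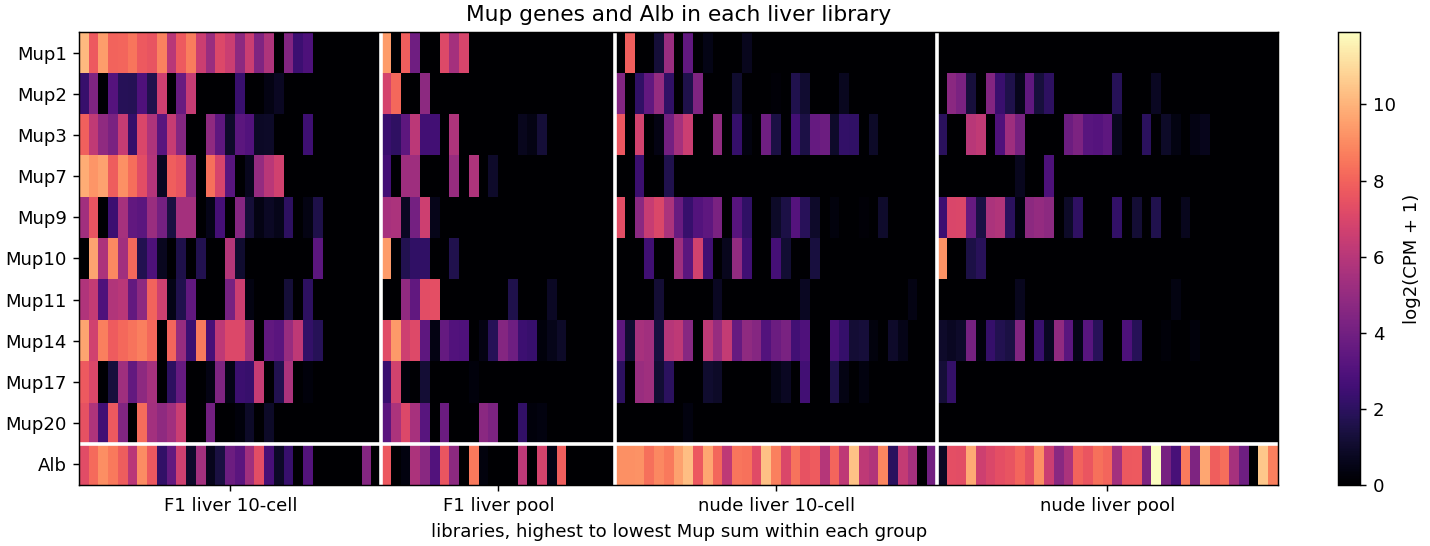
Level of each Mup gene and of Alb in every liver library as log2(CPM + 1), with libraries in columns ordered within each group from the highest to the lowest Mup sum. Mup1, Mup7, Mup11 and Mup20 are lit in many F1 10-cell libraries and dark in most nude libraries, whereas Mup3, Mup9 and Mup14 appear in both hosts.

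Mup1 was highest in F1 10-cell libraries, at 163 CPM ± 247 (SD, n = 31), with a median of 64.6 and a highest value of 1135. In nude 10-cell libraries it averaged 8.43 CPM ± 40.5 (SD, n = 33), with a median of 0, and 83.2% of the group's sum came from nude library 35, at 232 CPM, without which the mean was 1.46 CPM. The groups overlap, with 8 of 31 F1 and 27 of 33 nude libraries at 0 and 24 F1 libraries at or below the highest nude one. In pools it was 51.1 CPM ± 145 (SD, n = 24) in F1 and had no count in any of the 35 nude pools. It was present in 6 of 24 F1 pools, and without F1 pool 7 the F1 pool mean was 23.9 CPM.

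Mup7 was nearly absent from nude 10-cell libraries. It averaged 152 CPM ± 245 (SD, n = 31) in F1, with a median of 23.1 and a highest value of 904, against 0.193 CPM ± 0.813 (SD, n = 33) in nude, where the highest value was 4.23. Above that value lay 17 of 31 F1 libraries, while 12 F1 libraries were at 0, as were 31 of 33 nude ones. F1 pools were lower, at 6.95 CPM ± 15.5 (SD, n = 24), with a highest value of 52.3.

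Mup14 was found in both hosts, at 133 CPM ± 190 (SD, n = 31) in F1 10-cell libraries and 17.2 CPM ± 24.0 (SD, n = 33) in nude 10-cell libraries. Their medians were 32.9 and 6.26, and their highest values 810 and 79.0. In pools the means were 47.3 CPM ± 139 (SD, n = 24) in F1 and 3.17 CPM ± 6.46 (SD, n = 35) in nude. The F1 pool value rests on few libraries, since pool 8 held 58.8% of the group's sum, and without it the mean was 20.3 CPM.

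Mup20, the member with the largest share of sequence words of its own, was found almost only in the F1 libraries. It was at 31.7 CPM ± 70.8 (SD, n = 31) in F1 10-cell libraries, with counts in 14 and a highest value of 299.9, and at 12.7 CPM ± 29.2 (SD, n = 24) in F1 pools, with counts in 11. Without the highest F1 pool, pool 6, the pool mean was 7.51 CPM. In nude liver it had 1 count in 1 of 33 10-cell libraries and none in 35 pools. Taken over all counts of a group, the F1 pools were at least 392-fold higher than the floor of 3 counts over all nude pools, and at least 226-fold higher without pool 6. For Mup1 the same calculation gave 1530-fold, or 727-fold without pool 7. The floor covers counting error only, and not how reads were divided among the Mup genes. Of the liver values above 0, 97.1% were not whole for Mup1 and 73.1% for Mup20. The Mup1 value in particular is therefore no lower bound.

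Mup3, the best separated member, did not show that pattern in CPM. It averaged 26.3 CPM ± 51.9 (SD, n = 31) in F1 10-cell libraries and 16.5 CPM ± 41.0 (SD, n = 33) in nude 10-cell libraries, with medians of 3.73 and 0.884. In pools it was at 6.21 CPM ± 16.9 (SD, n = 24) in F1 and 7.67 CPM ± 17.4 (SD, n = 35) in nude. Without F1 pool 22 the F1 pool mean was 3.52 CPM, and without nude library 10 the nude 10-cell mean was 10.8 CPM. Counts were present in 19 of 31 and 19 of 33 10-cell libraries, so the groups overlap almost fully. Relative to Alb, the median ratio of Mup3 was 0.201 in F1 and 0.00303 in nude 10-cell libraries with Alb, as a description.

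Mup9 averaged 15.1 CPM ± 35.1 (SD, n = 31) in F1 and 16.0 CPM ± 37.5 (SD, n = 33) in nude 10-cell libraries, and 9.36 CPM in F1 without library 3. Mup11 had a mean of 25.5 CPM ± 52.7 (SD, n = 31) in F1 against 0.093 CPM in nude 10-cell libraries, where no library exceeded 1.30. Mup10 and Mup17 averaged 55.9 and 20.6 CPM in F1 and 6.30 and 2.77 CPM in nude 10-cell libraries, with overlapping ranges. Without the highest library of each group these were 31.3 and 14.3 CPM in F1 and 3.13 and 1.63 CPM in nude. Mup2 had the lowest F1 10-cell level of the 10, at 7.88 CPM, or 4.86 without library 33, against 2.98 in nude. In nude pools 99.2% of the Mup10 sum came from pool 35, and without it the mean of Mup10 was 0.132 CPM instead of 16.5.

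Whether the hosts differ was asked over libraries, in 10-cell libraries and in pools separately, with a fit across all genes by edgeR's quasi-likelihood test and Benjamini-Hochberg adjustment. In 10-cell libraries 1303 of 7064 genes tested were called at an adjusted p under 0.05 (18.4%), and 4 of the 10 members passed the filter on low counts. Mup1 rose in F1 by a log2 fold change of 4.46 (SE 0.99, edgeR adjusted p = 0.000622) and Mup14 by 3.48 (SE 0.77, edgeR adjusted p = 0.00056). Mup1 passed that filter mainly through its F1 libraries, so its call is partly a matter of which genes were tested. The Mup14 call is lost with limma-voom, with a log2 fold change of 2.08 and an adjusted p of 0.092, and with the replicate number as a block, at 2.95 (edgeR adjusted p = 0.171). Mup3 had a log2 fold change of 0.96 (SE 0.86, edgeR adjusted p = 0.474) and Mup9 of 0.19 (SE 0.82, edgeR adjusted p = 0.903), which do not pass, while Alb fell by 1.78 on the log2 scale (SE 0.63, edgeR adjusted p = 0.037). Without the F1 libraries that stand apart Alb did not pass, at -1.54 (edgeR adjusted p = 0.08), whereas Mup1 and Mup14 were at 4.49 and 3.74 and passed.

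With the filter set to a mean of at least 5 CPM all 10 members were tested in 10-cell libraries, where 11.4% of all genes tested were higher in F1. Members whose nude mean lies under 5 CPM entered that test only through their F1 libraries, so no count of them is given. Mup10 was called, at a log2 fold change of 3.53 (SE 1.06, edgeR adjusted p = 0.0107), although F1 library 3 held 45.8% of its F1 sum. Its nude mean of 6.30 CPM fell to 3.13 without nude library 29, so it too entered largely through its F1 libraries. Mup2, Mup3 and Mup9 did not pass in 10-cell libraries. In pools at that limit Mup10 was not called, at 1.24 (edgeR adjusted p = 0.536). With the first filter, in pools 714 of 6010 genes were called (11.9%), and Mup14 was the only member tested, higher in F1 by a log2 fold change of 4.41 (SE 0.94, edgeR adjusted p = 0.000871). Alb was at -2.32 there (edgeR adjusted p = 0.0622). The median gene moved by 0.24 on the log2 scale in each of these fits and by -0.14 and -0.15 with library totals alone, so changes are read against that shift.

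For the members that were too sparse for that fit, the number of libraries with at least 1 count was compared, with Fisher's exact test (two-sided) for all 19713 genes with a count and Benjamini-Hochberg adjustment over them. This test was added after the data had been seen. In 10-cell libraries 482 genes were called (2.45%), of which 71 were found in more F1 than nude libraries, and 4 of the 10 members were among these 71. Mup7 was present in 19 of 31 F1 and 2 of 33 nude libraries (exact adjusted p = 0.000763), and Mup1 in 23 and 6 (exact adjusted p = 0.00253). Mup20 was present in 14 and 1 (exact adjusted p = 0.00725), and Mup11 in 17 and 4 (exact adjusted p = 0.0245). Mup2, Mup3, Mup9, Mup10, Mup14 and Mup17 were not called, each with an exact adjusted p of 0.904 or 1. Mup17 was present in 17 and 13 libraries, and with at least 5 counts in 15 and 5 (exact adjusted p = 0.13).

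In pools 203 of 19713 genes were called by detection (1.03%). Mup1 was not called, in 6 of 24 F1 and 0 of 35 nude pools (exact adjusted p = 0.124), and Mup20 was the only member among them, present in 11 of 24 F1 and 0 of 35 nude pools (exact adjusted p = 0.00326). Alb went the other way, in 13 of 24 and 34 of 35 (exact adjusted p = 0.0139). After every library was thinned to the lowest total of those compared, Mup20 was present in 14 of 31 and 0 of 33 10-cell libraries (exact adjusted p = 0.00112). The same 4 members in 10-cell libraries and the same 1 in pools were called after thinning, with at least 5 counts required, and without the F1 libraries that stand apart.

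**Figure D4:**
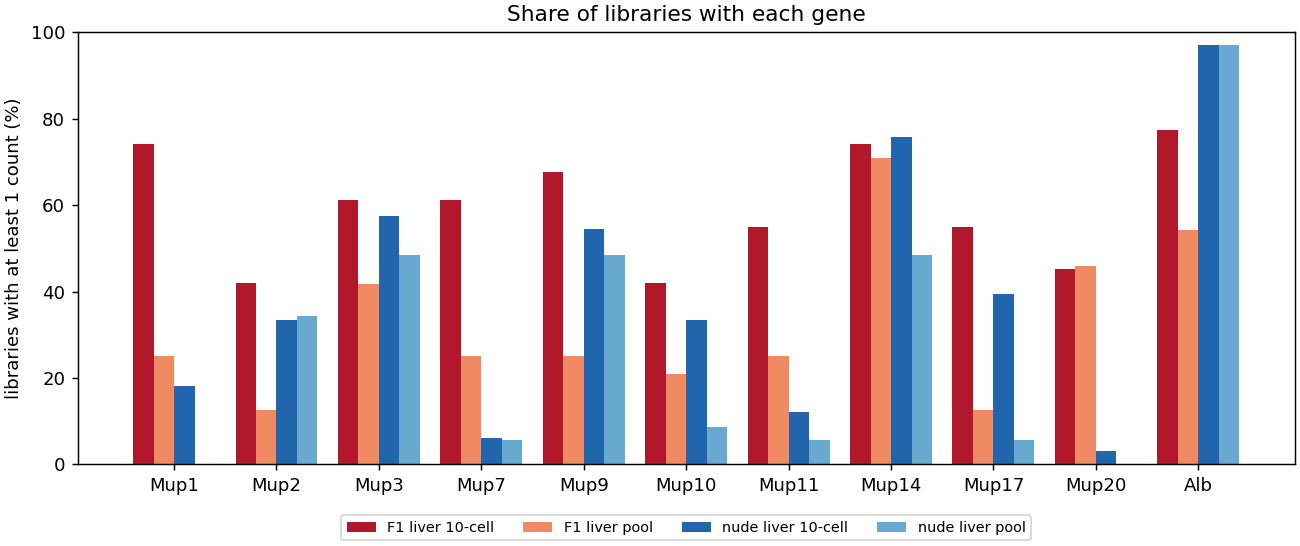
Share of libraries with at least 1 count of each Mup gene and of Alb, in percent, with a bar for each liver group. Mup1, Mup7, Mup11 and Mup20 were found in 74.2%, 61.3%, 54.8% and 45.2% of F1 10-cell libraries and in 18.2%, 6.06%, 12.1% and 3.03% of nude ones, while Mup3 and Mup14 had bars of like height in both.

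The 10-cell libraries and pools of 1 host were compared to ask whether captures differ from split pools. In nude liver 86 of 6299 genes were called (1.37%), and Mup14, the only member tested, had a log2 fold change of 2.10 (SE 0.69, edgeR adjusted p = 0.0931). In F1 liver 465 of 6439 genes were called (7.22%), and Mup7 was higher in 10-cell libraries by a log2 fold change of 4.31 (SE 1.21, edgeR adjusted p = 0.018). Mup7 had counts in 19 of 31 10-cell libraries and 6 of 24 pools. It passed the filter mainly through the 10-cell libraries, so its call is partly a matter of which genes were tested. Mup1, Mup3, Mup14 and Mup20 were tested and did not pass, with log2 fold changes of 1.56, 1.92, 1.40 and 0.93. A hepatocyte score, the mean log2(CPM + 1) of the listed hepatocyte secretion genes, was also used as a covariate. With it Mup7 was at 2.88 and no longer passed (edgeR adjusted p = 0.0967). Mup20 turned to -2.75 (edgeR adjusted p = 0.0497). Alb, which was used in choosing the members, is 1 of the 26 genes in that score, so these values are given as a description.

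The spread between pools was large as well. The coefficient of variation of the Mup sum was 1.32 in F1 10-cell libraries and 2.05 in F1 pools, and 1.32 and 2.32 in nude liver. A single member made up a median of 43.8% of the member counts in F1 10-cell libraries and 84.4% in F1 pools. In nude liver these were close, at 75.9% and 81.1%. All 10 members were present together in 6 F1 10-cell libraries and in no library of another group.

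The rest of the family was found in liver libraries too. All 11 other protein-coding Mup genes had a count in some liver library, the highest being Mup15 at 18.1 CPM in F1 10-cell libraries against 0.187 in nude ones, above the members Mup2 and Mup9. With its patch row it was at 36.3 CPM in F1. Mup19 (14.2) and Mup16 (12.4) were also above Mup2 in F1 10-cell libraries. All 11 were found in a larger share of F1 than nude 10-cell libraries, beside 6928 of all 19713 genes, and none was called by detection. Of the 27 pseudogenes, 1 had a count in the liver libraries. None of the 13 other Mup genes listed passed the low-count filter of the edgeR fits between hosts.

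No hepatocyte secretion gene that could be tested was called higher in F1. Of 26 listed genes, 18 were tested between hosts in 10-cell libraries. None of them was higher in F1 and 2 were lower, beside 745 higher and 558 lower of all 7064 genes tested. The 2 were Alb and Serpina1b, a protease inhibitor, at a log2 fold change of -2.26 (SE 0.84, edgeR adjusted p = 0.0479). In pools Serpina1b was not tested and its mean ran the other way, at 83.0 CPM ± 235 (SD, n = 24) in F1 and 19.2 CPM ± 54.9 (SD, n = 35) in nude. For the 18 tested, the median log2 fold change was -0.57, beside 0.24 over all genes. Positive values that did not pass were those of Serpina1c (1.11), Serpina1a (1.10), Fabp1 (0.90), Rbp4 (0.70) and Apoa1 (0.33). Rbp4, a retinol carrier, was also at 93.2 CPM in spheroid 10-cell libraries, so it does not mark liver cells alone. By detection Ambp (11 of 31 F1 and 28 of 33 nude) and Apoa1 (17 and 31) were called in fewer F1 10-cell libraries (exact adjusted p = 0.00921 and 0.0233). Serpina1e, not tested, averaged 15.7 CPM in F1 and 0.644 in nude 10-cell libraries, and 5.19 and 0.316 in pools. In pools 12 were tested, with a median of -1.65, and 3 were lower in F1, beside 222 of all 6010 genes. These were haptoglobin (Hp, -5.60), hemopexin (Hpx, -4.27) and Apoc1 (-2.94). By detection 6 were called in fewer F1 pools, which were these 3, Alb, Apoa2 and Apoc3. The lists, like the members, were drawn up with earlier results of these data known.

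None of the other lipocalins and related carriers was called higher in F1. Of 12 in the table, 3 were tested between hosts in 10-cell libraries and 3 in pools, and none was called, beside 18.4% and 11.9% of all genes. Rbp4 was the highest of them in F1 10-cell libraries, at 79.6 CPM. By detection Ambp, as above, and Apom, a carrier of sphingolipids, were called, Apom in 3 of 24 F1 and 22 of 35 nude pools (exact adjusted p = 0.02).

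Genes of growth hormone signalling, which drives Mup transcription, were mostly too sparse to test. Of 20 listed genes, 4 were tested in 10-cell libraries and 2 were lower in F1, beside 558 of all 7064 genes. These were the receptor Ghr, at a log2 fold change of -2.94 (SE 0.81, edgeR adjusted p = 0.00574), and Socs2, a feedback inhibitor of the pathway, at -2.20 (SE 0.72, edgeR adjusted p = 0.0219). Both were also present in 26 of 28 spheroid 10-cell libraries, at 5.17 CPM for Ghr and 18.8 for Socs2, so their values are not those of liver cells alone. In pools the 2 tested were Socs2, at -0.07 (edgeR adjusted p = 0.971), and Nr3c1, at -2.45 (edgeR adjusted p = 0.0701), and neither passed. Ghr was not tested there, and its mean was 12.2 CPM in the pools of both hosts.

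Genes known to differ between male and female liver were examined because Mup levels do. Of 17 listed male-biased genes 16 had a count in F1 10-cell libraries and 12 in nude ones, and of 19 female-biased genes 5 and 12 did. Of the 16 male-biased genes 8 were found in a larger share of F1 and 6 in a larger share of nude 10-cell libraries, and all 12 female-biased genes with a count were found in a larger share of nude ones, beside 58.5% of all genes. The detection test called 1 of each list, beside 2.45% of all genes. These were Selenbp2, in 16 of 31 F1 and 3 of 33 nude libraries (exact adjusted p = 0.0199), and the female-biased cytochrome Cyp3a41a, in 0 and 11 (exact adjusted p = 0.0233). Male-biased genes that went the other way without passing include C8a, in 3 and 12, and Nudt7, in 9 and 17, both chosen after their values were seen. No female-biased gene passed the low-count filter of the edgeR fits between hosts, and the highest in F1 10-cell libraries was Cyp2b13, at 3.59 CPM. Of the male-biased genes 2 were tested, and Gstp1 was higher in F1, at 1.37 (edgeR adjusted p = 0.0024), while Cyp2u1 was lower, at -2.16 (edgeR adjusted p = 0.000212). In pools neither passed, with Gstp1 at 0.24 (edgeR adjusted p = 0.704) and Cyp2u1 at -1.19 (edgeR adjusted p = 0.0757). Both were present in spheroids. Host sex is not given by the labels, and its part in the Mup values was not tested.

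Markers of other cells also moved with the host, beside 745 genes higher and 558 lower in F1 of all 7064 tested in 10-cell libraries. All 4 haemoglobin genes tested, of 7 listed red cell genes, were higher in F1 10-cell libraries, from Hba-a1 at a log2 fold change of 2.08 to Hbb-bt at 5.02, and their summed level ran from 0 to 32920 CPM in F1 and from 0.593 to 3743 in nude. In pools Hbb-bt alone was called, at 3.72 (edgeR adjusted p = 0.0119). The endothelial genes Pecam1 and Fcgr2b were lower in F1, at -3.15 and -5.13, 2 of 3 tested. In pools neither passed, at -0.11 (edgeR adjusted p = 0.916) and -2.08 (edgeR adjusted p = 0.0517). The neuroendocrine gene Uchl1 was higher, at 1.54, 1 of 10 tested. In pools 3 of 9 were higher, namely Uchl1 (1.70, edgeR adjusted p = 0.000104), Chgb (2.01, edgeR adjusted p = 0.0191) and Nfib (0.72, edgeR adjusted p = 0.0259). In the edgeR fits between hosts no listed Kupffer cell, stellate cell or bile duct gene was called, and no T or NK cell gene was tested. By detection the Kupffer cell gene Clec4f was called, in 0 of 31 F1 and 11 of 33 nude 10-cell libraries (exact adjusted p = 0.0233). In pools Spp1, listed as a bile duct gene and also present in 2 of 28 spheroid 10-cell libraries, was in 15 of 24 F1 and 0 of 35 nude (exact adjusted p = 0.000129). No listed stellate, T or NK cell gene was called by detection. The highest genes of these lists in F1 10-cell libraries were Lyz2 for Kupffer cells (21.5 CPM), Des for stellate cells (110.6), Krt7 for bile ducts (60.7) and Cd4 for T and NK cells (3.17), and Des and Krt7 were also in 28 and 27 of 28 spheroid 10-cell libraries. The part of these cells in the Mup result was not tested.

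Genes whose levels were most like the Mup sum were ranked by the mean of Spearman's rho within the 4 liver groups, over 8515 genes with a count in at least 62 of the 123 liver libraries. The 8 highest were Apoc1 (0.52), Apoa1 (0.52), the complement gene C4b (0.51), the selenium carrier Selenop (0.49), the protease inhibitor Serpina3k (0.49), the transthyretin gene Ttr (0.48), Hp (0.48) and the haemoglobin gene Hbb-bs (0.46). For comparison the 95th percentile of all genes ranked was 0.25. Hepatocytes make plasma proteins from all of these but Hbb-bs. Alb ranked close behind, with a mean rho of 0.44.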

How the data were processed

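Gene counts in 199 mouse libraries were taken from the deposited table, whose values are the authors' expected counts (estimated reads per gene). The submitters' processing notes name RSEM and Bowtie2 and the builds GRCm38 and GRCh38.p12, without versions or roles. Poly(A) RNA from laser captures was reverse transcribed and amplified by PCR without stated molecular identifiers, per the labels' protocols, so floors cover counting error only. The 92 ERCC spike-in rows were left out of totals and tests, and CPM was computed over the remaining genes.

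Expected counts were rounded to whole numbers and tested with edgeR 4.0.16 (TMM scaling, filterByExpr, robust quasi-likelihood fit) in R 4.3.3, over the libraries of each pair of groups, with Benjamini-Hochberg adjustment and a threshold of 0.05. Detection (at least 1 count) was compared by Fisher's exact test in scipy, added after the data were seen. Alternatives were RLE and TMMwsp scaling, library totals alone, no filter, a mean of at least 5 CPM, DESeq2 1.42.0, limma-voom (limma 3.58.1), a hepatocyte score as covariate, libraries of at least 2000000 gene counts, a replicate block, and leaving out the F1 libraries with low Rpl19-ps11. On simulated counts for the F1 and nude 10-cell comparison (7064 genes, 200 changed), the fit called 81.4% of the genes changed 8-fold and 41.3% of those changed 4-fold. Both test scripts were tested on simulated data.

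All 10 members are named. From each list up to 4 genes called by edgeR between hosts are named per direction, lowest adjusted p first, with those called by detection added later, and the highest gene of a list without calls, and the 8 genes most like the Mup sum were ranked on log2(CPM + 1), leaving out the Mup family with its assembly patch rows. The members and lists were chosen with earlier results of these data known. Library pairs within a group differed by more than sampling noise, with at least 29.1 times the chi-squared expected, so no library was taken for a copy of another. This does not show that the pools are independent. Coding sequences and transcript lengths came from GENCODE M21, aligned globally, and promoters from RefSeq. Protein sequences were not used here.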

Additional observations from a re-analysis of the deposited data

How the results depend on the processing

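Direction and side of the threshold were kept by Mup1 between hosts in 10-cell libraries and by Mup14 between hosts in pools under every alternative in which they could be fitted (Mup1 from 4.46 to 6.19 with limma-voom and 9.05 with the hepatocyte score, Mup14 from 4.41 to 2.19 with limma-voom, adjusted p = 0.0483), and the side of the threshold by all 10 members in the detection test under its 3 alternatives. Mup1 passed the low-count filter mainly through its F1 libraries. The alternatives use the same counts, so they are no independent support for its call. Mup14 between hosts in 10-cell libraries was not called with limma-voom or with the replicate block. Mup9 there turned to -0.088 with library totals alone. With the hepatocyte score, Mup20 between F1 captures and pools turned to -2.75 and passed (edgeR adjusted p = 0.0497). Mup7 in that comparison was then at 2.88 and lost its call (edgeR adjusted p = 0.0967). Counts of genes called between hosts in 10-cell libraries (1303) became 6294 with no filter and 1987 with a mean of at least 5 CPM. With library totals alone 261 of 1113 called genes were higher in F1, beside 745 of 1303. With limma-voom it was 581 of 1742 there, 223 of 821 in pools, 279 of 393 between nude captures and pools and, higher in captures, 417 of 533 between F1 captures and pools, beside 109 of 465. In pools 714 became 5857 with no filter, 1707 at 5 CPM and 397 with the hepatocyte score, and 166 of 552 were higher with library totals alone, beside 492. Between nude captures and pools 86 became 53 with library totals alone (38 higher, beside 22), 4579 with no filter, 700 at 5 CPM, 355 with DESeq2, 393 with limma-voom, 29 with the score and 186 with deep libraries. Between F1 captures and pools 465 became 4608 with no filter, 1038 at 5 CPM, 237 with the score and 283 without the low Rpl19-ps11 libraries. The cause was not tested. Of members not called, Mup14 between nude captures and pools passed with no filter (edgeR adjusted p = 0.0324) and limma-voom (adjusted p = 0.0396), and Mup1 between F1 captures and pools with limma-voom (adjusted p = 0.00897). Mup3 between hosts in 10-cell libraries was at 3.23 with the hepatocyte score (edgeR adjusted p = 0.00274). Alb, which was used in choosing the members, is 1 of the 26 genes in that score, so this is a description.

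Replicate numbers are shared between groups, but same-numbered libraries did not deviate together, with median correlations from -0.0033 to 0.0016 and 1 library per comparison matching its own number best. With the replicate block, 886 genes were called between hosts in 10-cell libraries, 169 in pools, 2 between nude captures and pools and 1 between F1 captures and pools. Mup14 in 10-cell libraries was then at 2.95 (edgeR adjusted p = 0.171).

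Depth limits the sparse members most, since a level at which a library holds under 1 count cannot be told from 0.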
